A study of Mus musculus with 2 samples.

Results

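The genes that encode the proteasome, its activators and its dedicated assembly factors were described in mouse Treg cells, the regulatory CD4 T cells that restrain immune responses. Members were the protein-coding genes whose GENCODE M21 symbol begins with Psm, a letter from a to g and a digit. The immunoproteasome genes Psmb8, Psmb9 and Psmb10 and rows named as pseudogenes were left out. The rule took 47 genes of 22028 protein-coding and 55536 annotated genes. It named no measured value. By known role they are 14 constitutive core subunits, 17 cap subunits, 4 activators, 1 inhibitor and 7 assembly factors. The cap subunits Adrm1 and Sem1 have other symbols and were left out, so the cap here is not complete. The remaining 4 are Psma8 and Psmb11, tissue-restricted paralogs of core subunits, and Psme2b and Psmc3ip, which share the symbol but are not established parts of the particle. Psme2b is an intronless copy of Psme2, and Psmc3ip encodes a partner of the meiotic recombinases. The label of a constitutive set therefore holds for the core and cap, while Psme1 and Psme2 are known as interferon-inducible.

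The cells came from a male mouse aged 9 weeks, and polyA RNA was sequenced in 2 libraries that are technical replicates 1 and 2 of biological replicate 1. There is 1 group, with no treatment, genotype or other cell type to compare it with, and the sources used here give no strain, sorting markers or strandedness. Values below are given for library 1 and then library 2, and any SD is over these 2 libraries (n = 2), so it covers technical spread only. Levels are in TPM, an abundance corrected for transcript length and scaled to a fixed total per library, so genes can be compared. They rest on estimated counts, in which reads that fit several genes are divided by a model.

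The proteasome is the protease that degrades proteins tagged with ubiquitin. Its core particle is a stack of alpha and beta rings, and the beta subunits Psmb6, Psmb7 and Psmb5 carry the caspase-like, trypsin-like and chymotrypsin-like sites. The cap binds ubiquitinated proteins, removes ubiquitin and unfolds the substrate with a ring of ATPases. Activators such as the Psme1 and Psme2 heteromer open the core gate without the cap. In lymphocytes the catalytic subunits can be exchanged for the immunoproteasome forms, which change the peptides made for antigen presentation.

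Estimated counts over annotated genes summed to 34697128 and 32049199. All 8 Treg markers were detected, with the lowest, Foxp3, at 108.27 and 110.65 TPM, and so were all 7 pan-T markers. Detection means at least 1 TPM in both libraries. Markers of other cells were present as well: 5 of 6 B cell genes were detected (80.3 and 68.5 TPM in sum), 2 of 7 myeloid genes (20.8 and 20.3), 1 of 5 dendritic cell genes (3.06 and 2.35), 4 of 6 CD8 T and NK genes (13.7 and 15.6, with Ncr1 at 0) and 5 of 6 red cell genes (383 and 351). The red cell genes were not low: Hba-a2 was at 141.08 and 126.06 TPM and Hbb-bs at 129.54 and 126.11 TPM, each above Foxp3. None of the 6 thymic and stromal genes was detected, and Foxn1 and Krt5 were at 0. The part of such cells in the proteasome levels was not tested, and in bulk RNA fewer cells of a type cannot be told apart from less RNA per cell.

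Of the 47 members, 45 were detected, and Psma8 and Psmb11 were not. Together the members took 0.557% and 0.571% of the estimated counts and 0.816% and 0.805% of the TPM. The median detected protein-coding gene stood at 31.94 and 30.14 TPM, and 43 of the 45 detected members lay above the median of such genes by mean TPM. All 31 core and cap genes lay above the 75th percentile, between the 77.0th and the 96.8th. Over the detected members the median SD between the libraries was 3.90% of the mean and the largest was 9.54%. Of the 46 pairs of neighbours in the order of levels, 25 had overlapping libraries, so much of the fine order is not resolved.

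**Figure D1:**
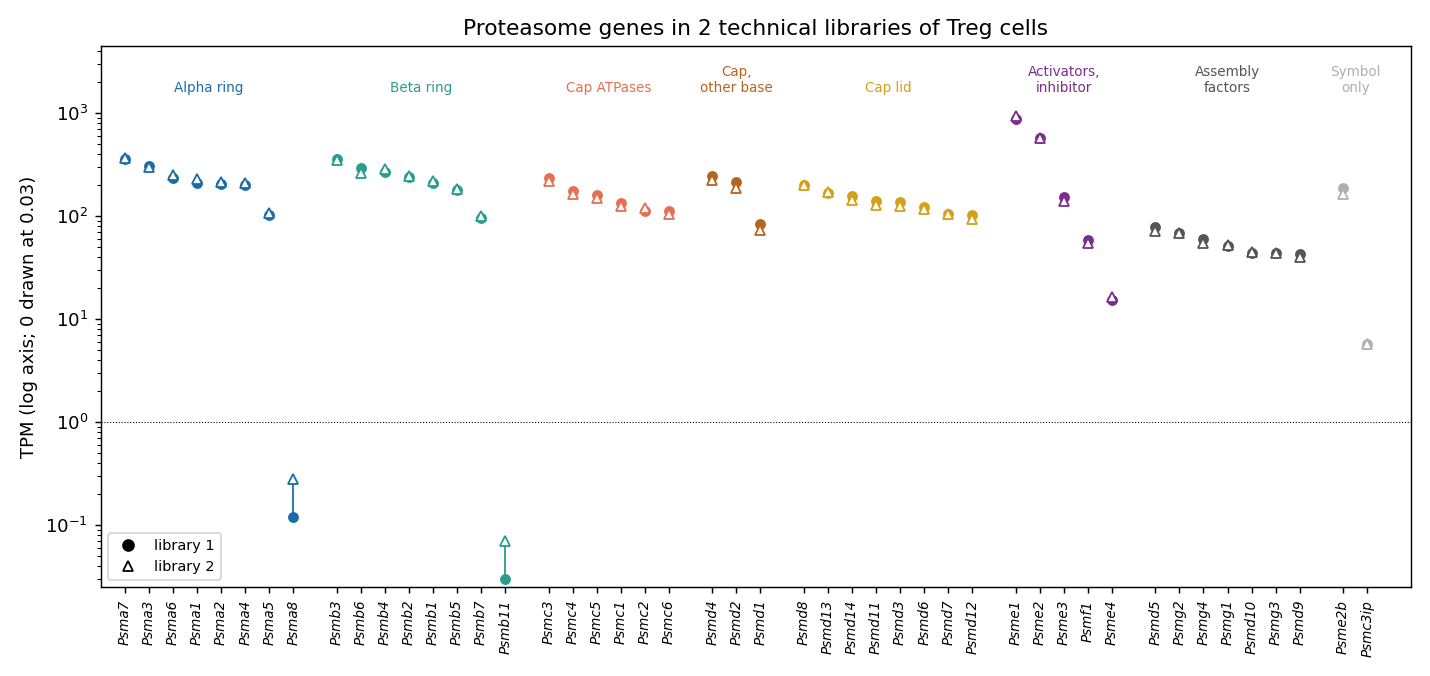
TPM (log axis) of each of the 47 genes in library 1 (filled circles) and library 2 (open triangles), grouped by role and ordered by mean; the dotted line is the detection limit of 1 TPM. The core and cap genes form a band from 73.20 to 364.72 TPM, and Psme1 and Psme2 lie above it. The assembly factors lie below the band, except for Psmd5 at its lower edge. Psma8 and Psmb11 lie below the limit.

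The alpha ring genes, which form the outer rings and the gate of the core, had a median of 211.10 and 228.39 TPM. Psma7 was the highest, at 356.59 and 364.72 TPM. Psma3 followed at 309.66 and 303.25 TPM and Psma6 at 234.78 and 250.56 TPM. Their libraries do not overlap, so the order of these 3 genes holds in both. Psma1 (211.10 and 228.39 TPM), Psma2 (204.86 and 212.85 TPM) and Psma4 (202.59 and 210.75 TPM) followed, with Psma2 overlapping each of the others. Psma5 stood apart at the bottom, at 103.73 and 107.06 TPM, with both libraries below those of every other alpha ring gene. Psma8, the germ cell form of the subunit that Psma7 encodes, had 3 and 9 estimated counts, or 0.12 and 0.28 TPM.

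The level of Psma3 (chr12:70974621-70996347, plus strand, GRCm38) depends on how reads are divided with a processed pseudogene. Of its 4133 distinct 50-base windows, 15.4% also occur in transcripts of other genes, all of them in Gm13835 (chr6:31141979-31142663, minus strand). Windows of 50 bases were used because effective lengths in the deposited tables were 49 bases shorter than the transcripts. Gm13835 was assigned 2306 and 2045 estimated counts, which is 28.8% and 28.1% of the counts of both genes. The posterior standard deviation of the count, the table's own measure of how uncertain the division is, was 197.50 and 181.78 for Psma3, or 3.46% and 3.48% of its count. In counts this was the largest among the detected members, and as a share of the count Psmc3ip was above it, at 4.43% and 5.10%. The pseudogene has no window of its own: all 685 bases of Gm13835 occur unbroken in Psma3-204, at bases 65 to 749 of that transcript, which is the leading transcript of Psma3 and 1 of its 9. Psma3-202 holds 616 of the 636 windows of Gm13835 and lacks the 20 at its start. The first 30 bases of Gm13835, which Psma3-204 holds as well, are shown because the first window shared with Psma3-202 begins within them. Capitals mark the 20 bases before that window. Only whole windows were compared, so Psma3-202 may hold some or all of these 20 bases in another context.

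Gm13835 and Psma3-204: ATGAGCTCCATCGGCACTGGgtacagctat

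A 50-base read that matches Gm13835 therefore matches Psma3-204 too.

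The beta ring genes had a median of 240.85 and 247.67 TPM. Among the non-catalytic members, Psmb3 was at 357.75 and 348.36 TPM, which overlaps Psma7. Psmb4 was at 270.71 and 286.08 TPM, Psmb2 at 240.85 and 247.67 TPM and Psmb1 at 207.99 and 218.89 TPM. These 4 genes did not overlap one another. The catalytic genes spread further: Psmb6 was at 295.14 and 264.88 TPM, Psmb5 at 180.70 and 184.05 TPM and Psmb7 at 97.08 and 99.33 TPM. The 3 catalytic genes therefore kept the order Psmb6, Psmb5, Psmb7 in both libraries. Psmb7 was the lowest gene of the core, and Psma7 exceeded it 3.67-fold in each library. Psmb11, the catalytic subunit of thymic cortical epithelium, had 0 and 6 estimated counts. A count of 0 allows up to 3 counts.

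The immunoproteasome counterparts were each above the constitutive catalytic gene on the TPM scale: Psmb9 over Psmb6 by 1.35 ± 0.0235 times (SD, n = 2), Psmb10 over Psmb7 by 3.40 ± 0.0894 and Psmb8 over Psmb5 by 5.23 ± 0.115. From the whole-number count table described below, per kilobase, these ratios were 0.871, 2.63 and 3.10, so the first of them turned to the other side of 1.

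Cap genes had a median of 141.26 and 129.63 TPM. In the ATPase ring, which unfolds substrates and threads them into the core, Psmc3 was the highest at 235.29 and 218.53 TPM, followed by Psmc4 (174.05 and 164.47 TPM) and Psmc5 (160.06 and 149.27 TPM). Psmc1 was at 133.95 and 126.78 TPM, Psmc2 at 112.94 and 120.35 TPM and Psmc6 at 112.41 and 104.55 TPM. No ATPase gene overlapped another over the libraries.

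The other base subunits include the ubiquitin receptor Psmd4, at 246.11 and 226.56 TPM, the highest cap gene. The scaffold subunit Psmd2 was at 215.25 and 189.91 TPM. Psmd1, the other large scaffold and docking subunit, was at 83.79 and 73.20 TPM and was the lowest of the 31 core and cap genes in both libraries. Among the 8 lid genes, Psmd8 was the highest at 202.92 and 202.34 TPM and Psmd13 next at 166.16 and 172.08 TPM. Psmd14, the deubiquitinase that cuts ubiquitin from the substrate, was at 157.55 and 143.43 TPM. Psmd11 was at 141.26 and 129.63 TPM and Psmd3 at 136.17 and 124.79 TPM. Psmd6 (121.98 and 117.08 TPM), Psmd7 (105.62 and 103.95 TPM), which pairs with Psmd14, and Psmd12 (102.41 and 93.02 TPM) were the lowest lid genes. No lid gene reached the level of Psmd4 in either library.

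On the TPM scale the median core gene was 1.58 and 1.84 times the median cap gene. In library 1, 15 of 17 cap genes were below the core median, and in library 2 all 17 were, while 12 of 14 core genes were above the cap median in each. The exceptions in the core were Psma5 and Psmb7. This order of core and cap is not shared by both kinds of deposited table. A second gene table holds whole-number counts on the older GENCODE M4 annotation, with 9576557 and 8937887 counts. Divided by M21 gene length, its medians were 798 and 798 counts per kilobase for the core and 1112 and 1079 for the cap, so the cap median was higher there.

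**Figure D2:**
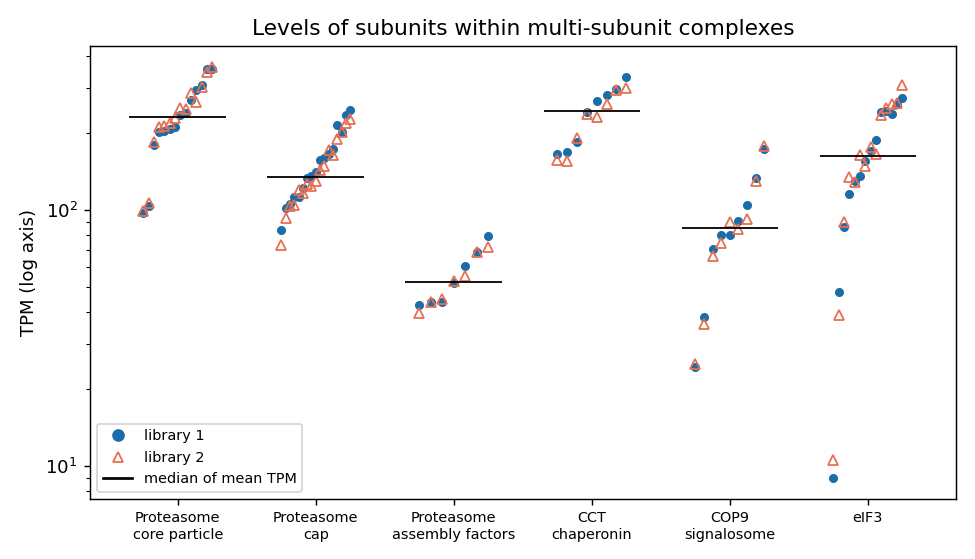
TPM (log axis) of the members of each complex in library 1 (circles) and library 2 (triangles), ordered by mean within the complex; the bars are medians of the mean TPM. Core and cap genes span 4.27 and 4.98 times from lowest to highest, against 2.00 and 1.93 times for the CCT chaperonin and 30.8 and 29.2 times for eIF3. The lowest eIF3 genes are Eif3j1 and Eif3j2, at means of 9.77 and 43.3 TPM, and the next is Eif3a at 87.9.

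Because subunits enter the particle in fixed numbers, the spread of their mRNA levels was set beside that of other complexes. The SD of log2 TPM over the 31 core and cap genes was 0.577 and 0.603. It was 0.568 and 0.550 in the core and 0.448 and 0.453 in the cap. The 8 genes of the CCT chaperonin, which folds actin and tubulin, had a mean SD of 0.383 over the libraries. The 9 genes of the COP9 signalosome, a relative of the lid, had 0.871, and the 14 of the translation initiation factor eIF3 had 1.31. The eIF3 list holds both Eif3j1 and Eif3j2, at means of 9.77 and 43.3 TPM, while its next lowest gene, Eif3a, was at 87.9. The COP9 list likewise holds both Cops7a and Cops7b, its lowest gene at 24.7 TPM, while the 31 core and cap genes leave out paralogs. Spreads without these genes were not computed. Over all 10583 detected protein-coding genes the mean SD was 2.09. From M4 counts per kilobase the SD of the 31 genes was 0.715. These are descriptions of lists of unequal size, with no test.

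Activators spanned a wide range of TPM, with Psme1 at 58.2 and 57.2 times Psme4. From M4 counts per kilobase that ratio was 7.49 and 7.22. Psme1 (ENSMUSG00000022216.17, chr14:55578123-55581529, plus strand) was the highest of all 47 members, at 886.48 and 931.38 TPM. Its partner Psme2 (ENSMUSG00000079197.10, chr14:55587441-55591113, minus strand) was next, at 580.20 and 576.25 TPM. Their proteins form the heteromeric activator, and Psme1 was 1.53 and 1.62 times Psme2. From M4 counts per kilobase Psme1 was 2.67 and 2.79 times Psme2, which at 741 and 701 was below the median of all members there, 824 and 815. Psme3, whose protein forms the nuclear activator that acts on unfolded proteins without ubiquitin, was at 155.05 and 141.85 TPM. Psme1 exceeded it 5.72-fold and 6.57-fold in TPM and 3.68-fold and 3.98-fold from M4 counts per kilobase. Psme4, the large activator of a single chain known for its part in chromatin and spermatogenesis, was at 15.23 and 16.28 TPM, the lowest of the detected members but for Psmc3ip. Psmf1, an inhibitor of the core, was at 59.09 and 54.78 TPM.

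Psme2b (ENSMUSG00000078153.3, chr11:48945354-48946190, minus strand) was at 187.05 and 163.54 TPM, which was 24.4% and 22.1% of the summed level of Psme2 and Psme2b. Adding it to Psme2 lowered the ratio of Psme1 to its partner to 1.16 and 1.26. Of the 788 windows of Psme2b, 69.3% also occur in other genes, mainly Psme2, and 242 are its own. Of the windows of Psme2, 28.3% are shared. The posterior standard deviation was 57.97 and 57.32 counts in both genes, beside counts of 3116 and 2644 for Psme2b. Psme2b lies within Gm12185 on the same strand and overlaps 9930111J21Rik1 by 41 bases, a gene with 13539 and 10393 estimated counts; the strand of the reads is not given. Over the 717 coding bases the copies differ at 5 positions (99.3% identity). Bases 424 to 543 of the coding sequence hold 3 of these, marked by capitals. They are among the letters by which a read can be given to either gene. The other coding differences, and bases outside the coding sequence, are not shown.

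Psme2: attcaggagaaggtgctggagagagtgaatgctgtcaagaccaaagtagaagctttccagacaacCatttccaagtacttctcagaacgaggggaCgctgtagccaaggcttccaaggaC

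Psme2b: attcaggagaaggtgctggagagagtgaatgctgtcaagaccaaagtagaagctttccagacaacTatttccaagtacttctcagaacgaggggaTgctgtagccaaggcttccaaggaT

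The 250 bases before a RefSeq start of each gene (GRCm38.p6) are shown beside the near-identical coding copies: Psme2 at chr14:55591102-55591351 and Psme2b at chr11:48946411-48946660, both on the minus strand. The stretches do not lie at like positions. That of Psme2 meets the M21 end of its gene, at 55591113. That of Psme2b begins beyond its M21 end, at 48946190, and the bases in between were not compared. Another RefSeq start of Psme2 is not shown. The longest run of letters that the 2 stretches share on the strand of the gene is 8 bases, and no letters are capitalised because neither holds the core of the interferon-stimulated response element.

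Psme2 upstream: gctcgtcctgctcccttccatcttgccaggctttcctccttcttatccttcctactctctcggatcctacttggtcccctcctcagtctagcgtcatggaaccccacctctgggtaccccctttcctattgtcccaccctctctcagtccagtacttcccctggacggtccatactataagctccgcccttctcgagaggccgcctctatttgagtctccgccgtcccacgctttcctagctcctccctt

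Psme2b upstream: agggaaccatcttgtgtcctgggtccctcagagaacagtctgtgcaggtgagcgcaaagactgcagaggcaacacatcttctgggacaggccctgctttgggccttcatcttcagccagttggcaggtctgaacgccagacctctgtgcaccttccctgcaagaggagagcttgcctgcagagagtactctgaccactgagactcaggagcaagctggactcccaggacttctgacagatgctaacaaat

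The stretches shown, which lie at unlike positions, resemble each other far less than the coding copies do.

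The 7 assembly factors had a median of 51.90 and 53.04 TPM, and the median of the core and cap genes was 3.48 and 3.47 times theirs. Psmg1 and Psmg2, the chaperone heterodimer on which the alpha ring is built, were at 51.90 and 53.04 TPM and at 68.63 and 68.77 TPM. Psmg3 (43.94 and 43.64 TPM) and Psmg4 (60.62 and 55.22 TPM) form the second such pair. Of the chaperones of the cap base, which bind the ATPases before the base is complete, Psmd5 was at 78.96 and 72.11 TPM, Psmd10 at 43.59 and 44.79 TPM and Psmd9 at 42.73 and 39.73 TPM. All 7 were below Psmd1, the lowest core or cap gene, within each library, but the range of Psmd5 overlapped that of Psmd1 across libraries. From M4 counts per kilobase the core and cap median was 1.61 times that of the assembly factors. Psmc3ip was at 5.68 and 5.75 TPM.

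Genes of the pathway outside the symbol rule were also detected. Of the other proteasome components, all 9 with a matching symbol were detected, with the core maturation factor Pomp the highest at 307 ± 3.37 TPM (SD, n = 2) and Ecpas, a proteasome adaptor, the lowest at 45.04 ± 5.59 TPM. The cap subunits Adrm1, at 124.56 ± 7.17 TPM, and Sem1, at 117.94 ± 2.91 TPM, are among them and enter no cap value above. Pomp therefore stood among the core subunits and above each of the 7 assembly factors. All 12 genes listed as direct or indirect regulators of proteasome genes were detected, from Maff at 1.37 ± 0.184 TPM to Stat3 at 186 ± 12.3 TPM. Of the 6 ubiquitin and ubiquitin-activating genes, Ubb was the highest at 1920 ± 67.9 TPM and Uba6 the lowest at 14.6 ± 0.219 TPM. In the list of Vcp and shuttle factors, which extract and deliver substrates, 9 of 10 were detected, Vcp itself at 294 ± 12.6 TPM, and Ddi1 was not.

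Which annotated transcripts carried these levels differed between members. The 45 detected members have 248 annotated transcripts. The median share of a member's TPM in protein-coding transcripts was 90.2%, beside 86.9% and 86.7% over all detected coding genes. The share exceeded 90% in 23 members and was under 70% in 5, and shares within a gene come from the same dividing model.

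**Figure D3:**
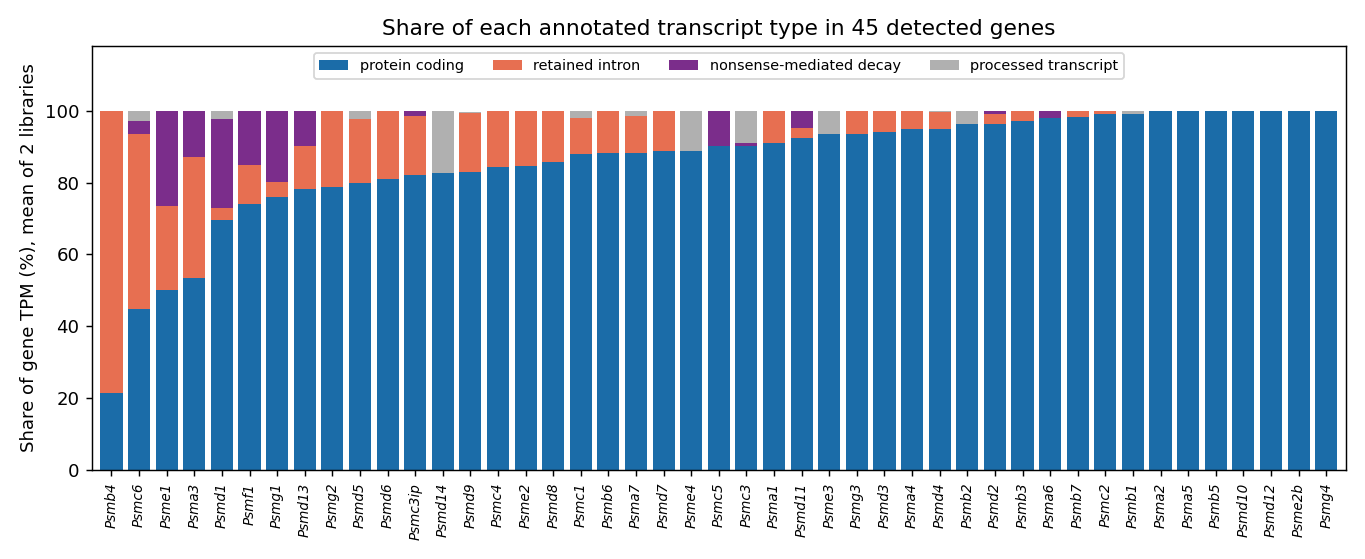
Share of each detected member's TPM (percent, mean of 2 libraries) in transcripts annotated as protein coding, retained intron, nonsense-mediated decay or processed transcript, ordered by coding share. Psmb4, Psmc6, Psme1, Psma3 and Psmd1, at the left, have coding shares of 21.5%, 44.96%, 50.2%, 53.3% and 69.7%.

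In Psmb4 the leading transcript was Psmb4-202, annotated as a retained intron, with a mean of 49.9% of the gene's TPM. The coding transcript Psmb4-201 had 21.5% of TPM but 38.8% of the estimated counts, since short transcripts gain share when reads are divided by length. In Psme1 the leader by TPM was Psme1-209, annotated as a target of nonsense-mediated decay, a pathway that removes mRNAs with early stop codons, with 26.6% and 26.2%. By estimated counts it had 15.7%, and the coding Psme1-208 led with 26.6%. These are the 2 detected members whose leading transcript was not protein-coding. In Psma3, retained-intron transcripts had 33.9% of TPM, and in Psmc6 they had 48.6%. Psmc6-201, the coding transcript, had 44.96% of the TPM of Psmc6 and 75.3% of its estimated counts. In Psmd1 the transcript Psmd1-204, annotated for nonsense-mediated decay, had 24.6%.

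Counting protein-coding transcripts only changed the order of some members. Psmb4 went from 278 ± 10.9 to 59.9 ± 4.35 TPM (SD, n = 2), Psmc6 from 108 ± 5.56 to 48.8 ± 3.62 and Psmd1 from 78.5 ± 7.49 to 54.7 ± 6.45. These 3 subunits then lay in the range of the assembly factors, of which Psmd5 had 60.4 ± 6.52 and Psmg4 57.9 ± 3.82. Psme1 had 426.95 and 486.07 TPM in coding transcripts and Psme2 had 493.31 and 484.85, so Psme1 was no longer above Psme2 beyond the spread of the libraries. The order of core over cap kept its direction, with medians of 199 and 211 TPM against 127 and 121. Over the 30 members with an annotated retained-intron transcript its median share was 11.1%, beside 12.6% and 13.1% over 6479 such genes in all, and over the 14 members with a nonsense-mediated decay transcript the median share was 7.34%.

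The agreement of the libraries was sized with an exact two-sided binomial test on estimated counts, adjusted with the Benjamini-Hochberg method over all 18746 genes tested, with a threshold of 0.05. It compares the 2 libraries as counted, not conditions, and covers counting error only, since PCR copies are not independent molecules. It called 20 of 46 members tested, beside a background of 36.5% of all genes called and 47.1% of coding genes with at least 500 summed counts. Psmb11 had too few counts to be tested. The members' differences were small: the largest among the 45 detected members was 1.13-fold, and the SD of their log2 ratios was 0.09 against 0.19 for the coding genes with at least 500 counts. These sets were not matched for counts, and log2 ratios spread more at low counts, so the SDs do not compare like with like.

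Core genes accounted for most of the calls. Of the 14 core genes, 11 were called higher in library 2 and Psmb6 was called higher in library 1. The background was 17.2% of all genes tested in the direction of library 2 and 19.2% in that of library 1. These shares are not matched to the core for counts or length. Coding genes with at least 500 summed counts were called more often, 47.1% in either direction, and their share by direction was not computed. As log2 ratios of library 2 over library 1, the core median was 0.12. Psmb4 had the largest ratio among the detected members, at 0.18 (adjusted p = 1.82e-06, exact binomial test), and Psma6 followed at 0.17 (adjusted p = 2.1e-07, the same exact test). Psmb6 was at -0.09 (adjusted p = 0.0166, exact). Of the 17 cap genes 3 were higher in library 2, with Psmc2 at a log2 ratio of 0.16, and the scaffold genes Psmd2 (-0.11) and Psmd1 (-0.11) were lower; the median was -0.03. Among the 4 activators Psme1 (0.16, adjusted p = 1.75e-17, exact) and Psme2 (0.06, adjusted p = 0.013, exact) were called, both higher in library 2, while Psme2b was lower, at -0.12. Without a correction for length none of the 7 assembly factors was called with the exact binomial test, with 1 at an unadjusted p under 0.05, Psmg3, at a log2 ratio of -0.15.

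Length moved with these ratios. Among coding genes with at least 500 summed counts, those shorter than 1000 bases had a median log2 ratio of 0.10, those of 1000 to 1500 bases had 0.02, of 1500 to 2000 bases -0.01, of 2000 to 3000 bases -0.03 and of 3000 bases or more -0.05. With each ratio centred on genes of like length, an alternative chosen after seeing the data, 18 members were called, 10 higher and 8 lower in library 2, against a background of 35.1% (17.4% higher and 17.7% lower), and 9 of 14 core genes, 7 higher and 2 lower, with a median of 0.08. The 2 lower were Psmb6 (-0.18) and Psma3 (-0.09), and Psmb4 was no longer called, at 0.08. The binomial test takes no account of how uncertain the division of reads between genes is. For Psma3 the posterior standard deviation was 3.46% and 3.48% of its count, so its call is weak. Centring left Psme1 called, at 0.07, while Psme2 turned to -0.02 with an adjusted p of 0.444 (exact binomial). It brought 2 of 7 assembly factors past the threshold, both lower in library 2: Psmg3 at -0.24 and Psmg4 at -0.22. Without the filter on low counts 20 were called, against a background of 20.2%. With edgeR's exact test and its common dispersion (a coefficient of variation of 15.1%), 0 members were called and 0 had an unadjusted p under 0.05, against a background of 2.98%. That dispersion was estimated from these same 2 libraries taken as replicates. The 0 therefore cannot decide whether the binomial calls hold. With the binomial test on M4 counts 0 members were called and 3 had an unadjusted p under 0.05, against a background of 14.4%. Of 115 genes tested from the lists fixed for other cells and pathways, 11 passed the threshold with a log2 ratio of at least 0.5 either way. All were markers of other cells, from -3.16 to 6.14: Ms4a1, Csf1r, S100a8, S100a9, Adgre1, Flt3, Siglech, Cd8a, Gzma, Eomes and Col1a1. Several had few counts, such as Siglech (19 and 4) and Col1a1 (14 and 1), and log2 ratios spread more at low counts. The share of all tested genes past both limits was not computed. The myeloid genes S100a8 and S100a9 had 0 counts in library 1 and 32 and 20 in library 2. The part of these cells in the members' ratios was not tested.

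**Figure D4:**
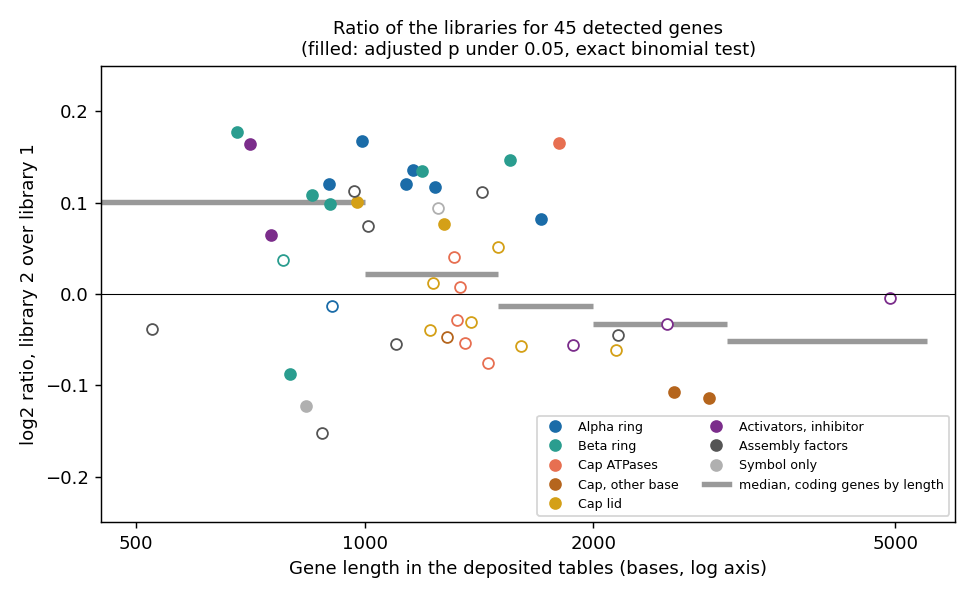
Log2 ratio of library 2 over library 1 for the 45 detected members against gene length in bases (log axis), coloured by role, filled where the adjusted p of the exact binomial test is under 0.05; grey bars are medians by length of coding genes with at least 500 summed counts. Of the 14 core genes 12 lie above 0, and Psmd1 and Psmd2 lie near -0.11.

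Members differed more between the 2 kinds of deposited table than between the libraries. The M4 count was a median 33.9% and 35.1% of the M21 estimated count over the 44 members with at least 500 estimated counts in library 1, and it ranged from 5.13% and 5.21% in Psma3 to 82.7% and 82.1% in Psme4. Psmb3 had 6.01% and 6.55%, Psme2 6.46% and 6.34% and Psme1 11.3% (library 1). By role the median was 21.02% and 20.84% in the core, 39.5% and 41.7% in the cap, 14.0% and 14.1% in the activators and 46.5% and 48.4% in the assembly factors. Members with more reads per base tended to have a lower share, but Psmg3, at 13.8% and 17.8%, and Psma5, at 10.04% and 9.83%, were low for their reads per base. Across these 44 genes, which are not independent and share libraries, the Spearman correlation of that share with estimated counts per base was -0.66 and -0.68. It was -0.64 and -0.66 over the 34 genes with at most 10% of windows shared, and -0.51 and -0.52 with the share of shared windows. Across the 45 detected members TPM and M4 counts per kilobase had a Spearman correlation of 0.56 and 0.55. The sources used here do not say how the M4 reads were filtered and counted, and what sets the gap was not tested.

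**Figure D5:**
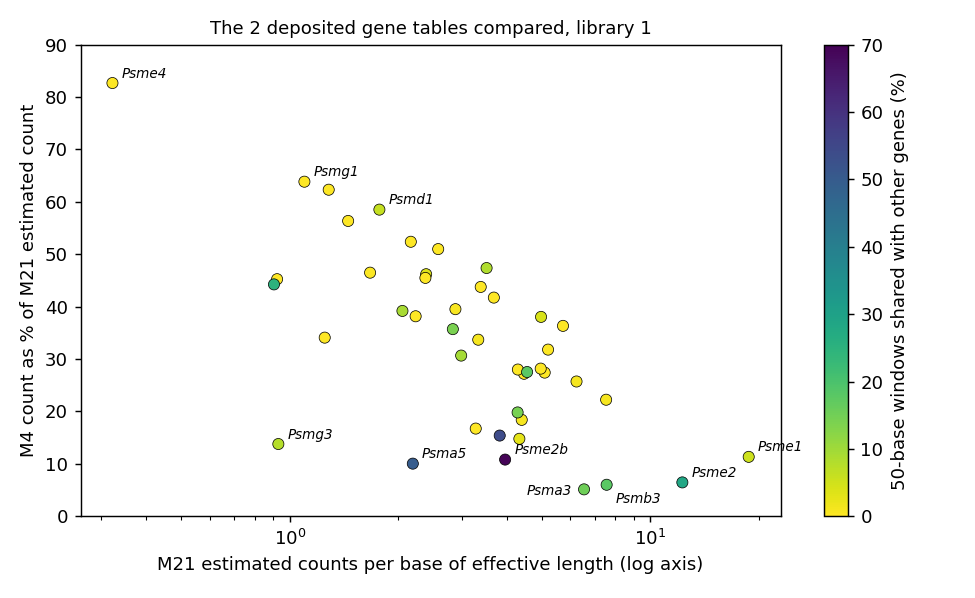
M4 count as a percentage of the M21 estimated count against M21 estimated counts per base (log axis) for the 44 members with at least 500 estimated counts, library 1; colour is the percentage of 50-base windows shared with other genes. Psme4 is at the upper left at 82.7%, and Psma3, Psmb3, Psme2 and Psme1 are at the lower right, at 5.13% to 11.3%.

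Of all 47 members, 19 had no shared window and 11 had over 10%, with Psma3, Psme2 and Psme2b among the 11. Psmb5 shared 54.1% of its windows and Psma5 49.96%, yet their pseudogene partners took few reads: Gm3375, the main partner of Psmb5, had 11.1 and 6.74 estimated counts, and Gm8394 and Gm12989, those of Psma5, had at most 17.9. Psmd11 shared windows with A730017L22Rik (529 and 522 counts) and Gm14048 (254 and 273 counts). Genes that overlap members on the genome include Slc39a13 over Psmc3, Nek6 over Psmb7 and Mlx over Psmc3ip on the opposite strand. Mlx had 2635 and 2505 estimated counts, many more than the 144 and 142 of Psmc3ip. Gm15542, a pseudogene inside Psmd13 on the same strand, had 2045 and 1894. The posterior standard deviation of Psmd13 was 0.51 and 0.50 counts, and that of Psmc3ip was 6.37 and 7.24.

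RefSeq start sites were matched for 39 of the 47 members, and their 250 upstream bases were searched on both strands. The core of the antioxidant response element, TGACNNNGC, which the proteasome regulator Nfe2l1 is known to bind, was in 5 of 39 (12.8%), beside 13.9% of 8393 detected genes and 10.4% of all 21263 promoters. The 5 were Psmb5, Psmb6, Psmc6, Psmd12 and Psmd9. The CCAAT box (CCAAT) was in 14 members (35.9%, beside 41.2% of detected genes and 35.4% of all promoters) and the GC box (GGGCGG) in 21 (53.8%, beside 64.7% and 42.6%). An ETS-type motif, CCGGAAG, was in 13 members (33.3%, beside 17.8% and 8.98%). TATAAA was in 3 members (7.69%, beside 7.43% and 11.6%). The core of the interferon-stimulated response element was in 3 (7.69%, beside 3.36% and 2.96%), namely Psmb3, Psmd4 and Psmd9. TGACGTCA was in 0, beside 3.18% of detected genes and 1.92% of all promoters. The letters of these motifs differ, so a match to 1 is not a match to another. A match describes these letters only. The stretch of Psmb6, 1 of the 5 members with TGACNNNGC, is at chr11:70525107-70525356 on the plus strand. It is shown as an example, with its match in capitals at the end nearest the start site.

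Psmb6 upstream: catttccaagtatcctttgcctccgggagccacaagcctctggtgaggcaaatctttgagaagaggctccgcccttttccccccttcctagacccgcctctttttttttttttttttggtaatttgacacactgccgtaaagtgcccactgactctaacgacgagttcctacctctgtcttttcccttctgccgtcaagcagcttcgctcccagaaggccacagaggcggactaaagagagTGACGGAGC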

How the data were processed

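PolyA RNA was measured in 2 technical libraries of 1 biosample of mouse Treg cells, so p-values cover the difference between these libraries and no biological spread. Per the file headers, the authors deposited estimated counts, TPM, FPKM, posterior mean TPM and a posterior standard deviation, a score of the model, per gene and transcript on mm10. The deposited M4 tables hold whole-number read counts per gene. The sources used here name no aligner, quantifier, counter or read length. Rows that name no gene (26345, with 0.197% and 0.212% of counts) were left out. Estimated counts were rounded, filtered at a summed count of 10, scaled with TMM (edgeR 4.0.16, R 4.3.3) and tested with an exact binomial test, since 1 library a side leaves edgeR's quasi-likelihood test no residual degrees of freedom. The test was checked on simulated data. Alternatives were library totals, DESeq2 1.42.0 size factors, no filter, M4 counts and edgeR's exact test. Summaries used pandas 2.3.3. Binomial results cover counting error only. Gene models were GENCODE M21 on GRCm38, and upstream sequences came from RefSeq. The members, roles and lists were chosen with earlier results of these data known. Named genes were all members and, of other lists, the highest and lowest genes, the immunoproteasome genes and those past the threshold with a log2 ratio of at least 0.5. Adrm1, Sem1, Eif3a, Eif3j2, Cops7a and Hbb-bs were also named, for the limits given with them.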

Additional observations from a re-analysis of the deposited data

Results flagged for a closer look

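The rows named as pseudogenes, which the symbol rule leaves out, held a signal in data outside the description above. Of 4 such rows Psmb6-ps2 was above the 3 counts that a count of 0 allows in both libraries, with 5.2 estimated counts in library 1 and 8.45 in library 2, beside 4678 and 4067 for Psmb6. Psmb5-ps had 0 and 1.01, Psmb6-ps 0 and 1, and Psmb7-ps2, above it in library 1 alone, 3.54 and 0.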

How the results depend on the processing

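The number of members detected was 45 with FPKM, with posterior mean TPM, with a limit of 5 TPM and without either library, and 46 at 0.1 TPM. The count of 20 members called between libraries stayed within 1.5 times with library totals, DESeq2 size factors, no count filter and length centring. It was 0 with M4 counts and 0 with edgeR's exact test, whose dispersion came from the same 2 libraries. As posterior mean TPM the role medians were 215 for the core, 340 for activators and 49.2 for assembly factors, and as FPKM they were 144 for the core, 84.4 for the cap, 226 for activators and 32.7 for assembly factors, a change of unit. The ratio of the core and cap median to the assembly factors was 3.44 with posterior mean TPM, 3.23 with coding transcripts only and 1.61 from M4 counts per kilobase. The ratio of core to cap was 0.728 from M4 counts per kilobase, and that of activators to core and cap was 2.09 with coding transcripts and 0.573 from M4, against 1.99 in TPM. Psmb9 over Psmb6 was 0.871 from M4. The cause of these reversals was not tested. The spread of the core and cap genes was 0.715 from M4. The median coding share was 92.7% by estimated counts and 89.0% by posterior mean TPM. Without either library in turn, the core median ran from 223 to 238 TPM, the cap from 129.63 to 141.26, activators from 359 to 368, assembly factors from 51.9 to 53.0, the spread from 0.577 to 0.603, the coding share from 89.8% to 90.3%, the core to cap ratio from 1.58 to 1.84, core and cap to assembly from 3.47 to 3.48 and activators to core and cap from 1.95 to 2.03. Depth limits Psma8 and Psmb11, which had at most 9 estimated counts. No paired analysis was possible because there is 1 group.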
